A study of Mus musculus with 6 samples.

Results

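The genes described here encode the hydrolytic enzymes of the lysosome, the activator proteins that help them, proteins of the lysosomal membrane, and a pair of regulators. They were chosen by name, as every probe whose target name equalled 1 of 37 listed symbols, in an Illumina bead array study of mouse cancer-associated fibroblasts treated with decitabine. Of the 37 genes, 36 had probes under the listed name, out of 30854 target names on the array, and these genes hold 77 of the 45281 probes. The list holds 13 cathepsins (with legumain), 17 hydrolases and activators, 5 membrane proteins and 2 regulators. LIPA, lysosomal acid lipase, had no probe under that name. Its older symbol, LIP1, had 2 probes, which are described apart from the counts. Gene names are written in capitals, in the style of the array.

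Lysosomes are acidic compartments in which proteases, glycosidases, lipases and sulfatases break down material that reaches them by endocytosis or autophagy. Most of the soluble enzymes carry mannose 6-phosphate and are sorted from the Golgi by its receptors, a proton pump keeps the lumen acidic, and many of the genes are activated together by the transcription factor TFEB. Fibroblasts degrade matrix collagen partly in this compartment, and some cathepsins are also secreted into tumour stroma.

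The cells were a short-term explant culture of fibroblasts from 1 pancreatic carcinoma of a KPC-Brca1 mouse, a genetic model of pancreatic cancer. The DAC plates (n = 3) received DAC (decitabine, 5-aza-2'-deoxycytidine, a cytidine analogue that traps DNA methyltransferases) at 2 micromolar for 48 hours, and the untreated plates (n = 3) received none. Since every plate derives from that tumour, a p-value here reflects how plates of 1 culture vary, which may be technical, and not how tumours or mice vary. The comparison asks what the drug switches on in these fibroblasts.

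Between 16205 and 16528 probes were detected on the DAC arrays and 16254 to 17180 on the untreated arrays (detection p under 0.01). The raw 75th percentile was 96.6 to 106.0 on the DAC arrays and 110.9 to 116.9 on the untreated arrays. Across kept probes, the normalised log2 intensities of arrays of 1 group correlated at 0.993 to 0.996, and those of arrays of different groups at 0.974 to 0.980. Of 11 fibroblast markers, 10 were detected on all 6 arrays, of which LUM, the matrix proteoglycan lumican, was 1.67-fold lower with DAC (limma adjusted p = 3.44e-04) and the other 9 did not pass. None of 6 endothelial markers was detected on any array. Of 9 epithelial markers, 4 were detected on no array, EPCAM and CDH1 among them, and 4 were detected on all 6 arrays, of which KRT19 was lower and KRT7 higher with DAC. In such bulk RNA, fewer cells of a type and less RNA per cell cannot be told apart.

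Most lysosomal genes did not pass the test. Of the 36 genes on the array, 32 had a probe that passed the filter (detection p under 0.01 on at least 3 arrays), and all 32 were detected on all 6 arrays through their brightest such probe, which stands for the gene below. With DAC, 4 genes were higher (CTSH, CTSZ, GLA and GLB1) and 2 were lower (CTSL and GM2A) with limma and a threshold of 0.05 on the p-value, Benjamini-Hochberg adjusted over all 16883 kept probes. Over all 12074 target names tested, 28.0% were called, 13.9% higher and 14.0% lower. Among the lysosomal genes 12.5% were higher, a share near that background, and 6.25% were lower. Without DAC replicate 1 or untreated replicate 2 the higher genes numbered 2, and with 75th percentile scaling 8. The median log2 change was 0.04 for the lysosomal genes, against −0.00105 for all target names. The median size of the change, whatever its sign, was 0.11 and 0.19 on the log2 scale. A change of over 0.5 was seen for 3 of the 32 genes (9.38%, against 13.2% of all target names), and a change of over 1 for none, against 337 of all 12074. The 3 DAC and 3 untreated values did not overlap for 9 of the 32 genes, against 42.7% of all target names. While all 32 genes were detected on all 6 arrays, 15045 of the 16883 kept probes were. The array-wide values may therefore also draw on probes detected on fewer arrays, some in 1 group only.

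**Figure D1:**
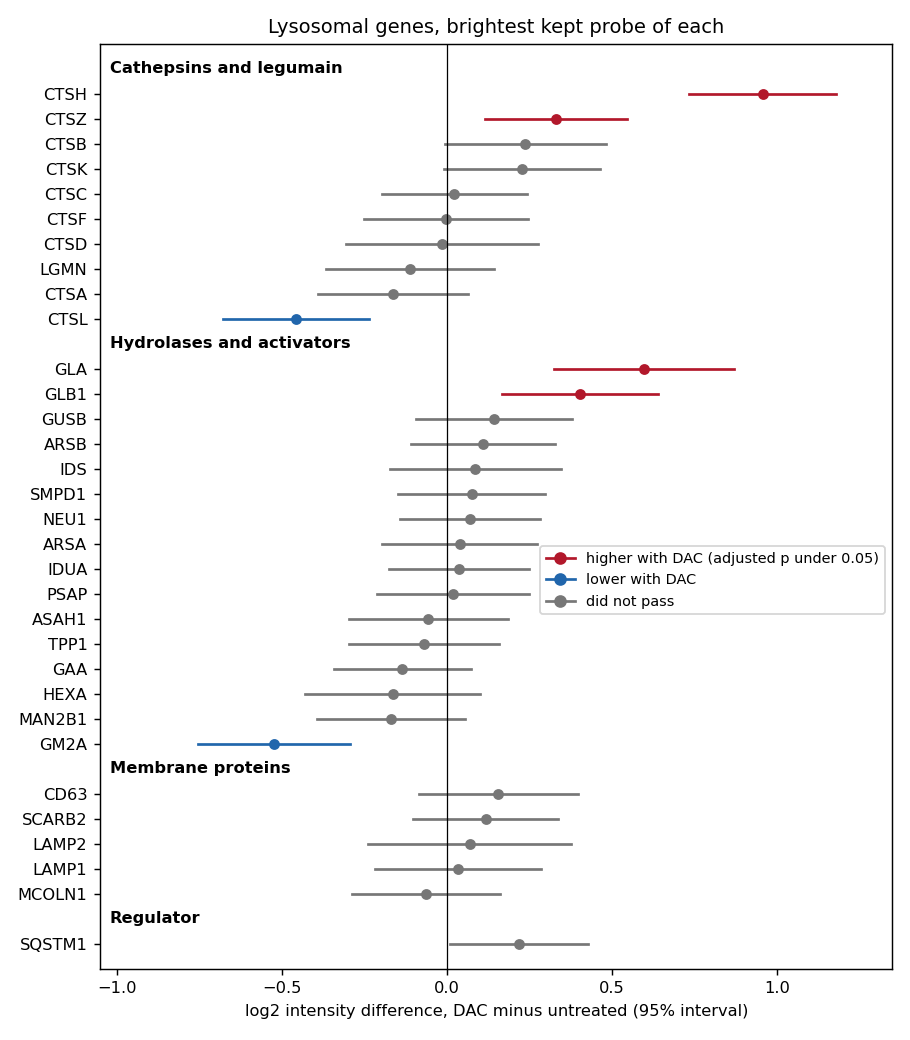
Log2 intensity difference (DAC minus untreated) of the 32 tested lysosomal genes, each from its brightest kept probe, with the 95% interval of limma as a line, grouped by role and named in capitals as in the deposited table. CTSH lies at 0.96, GLA at 0.60 and GM2A at −0.52, and the intervals of the 26 grey genes all lie between −0.43 and 0.48.

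The 26 genes that did not pass had 95% intervals that reached from −0.43 at the lowest to 0.48 at the highest. All 26 intervals lay within 0.5 of 0 on the log2 scale, and all 26 estimates within 0.25. The intervals, which are not adjusted for the number of probes, held 0 for every one of the 26 except SQSTM1 (0.01 to 0.43). The pooled SD between plates of a group had a median of 0.12 for the lysosomal genes, against 0.13 for all target names. The sizes also depend on how the arrays were scaled. With 75th percentile scaling in place of quantile normalization, the probes called over the whole array were 2953 higher and 1981 lower, in place of 2220 and 2454, and without between-array normalization they were 1266 and 4224. The median change of all kept probes was 0.05 and −0.13 in these settings, against −0.01. The direction of the 6 called genes was the same under both.

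Among the cathepsins, CTSH was higher in every DAC plate. CTSH encodes cathepsin H, a cysteine protease that works mainly as an aminopeptidase. Its brightest probe read 11.01, 10.97 and 10.94 log2 units on the DAC arrays, against 9.89, 10.00 and 10.15 on the untreated arrays. The groups lay far apart, with less spread among the DAC plates. The log2 change was 0.96 ± 0.10 (SE), 1.94-fold, with a limma adjusted p of 1.09e-05. A further CTSH probe read 9.71, 9.95 and 9.76 with DAC, against 8.75, 8.81 and 9.05 untreated, a change of 0.94 ± 0.11 (limma adjusted p = 2.94e-05). Both probes were called under every alternative run, with log2 changes of 0.83 to 1.08.

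CTSZ, cathepsin Z, a carboxypeptidase of the same protease family, was higher by a smaller step. It read 9.53, 9.53 and 9.47 on the DAC arrays, against 9.15, 9.09 and 9.29 on the untreated arrays. All DAC plates were above all untreated plates, by 1.26-fold on average (log2 change 0.33 ± 0.10, limma adjusted p = 0.0242). The second probe gave 0.39 ± 0.10 (limma adjusted p = 0.0130). The call of the brightest probe was lost without any 1 of DAC replicates 1, 2 and 3 and untreated replicates 1 and 2 (limma adjusted p from 0.0501 to 0.0973), and that of both probes without between-array normalization, where the changes were 0.23 and 0.27 (limma adjusted p = 0.156 and 0.113).

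CTSL moved the other way. It encodes cathepsin L, an endopeptidase of the lysosome that is also secreted. The probe read 8.37, 8.14 and 8.22 on the DAC arrays, against 8.64, 8.69 and 8.76 on the untreated arrays. The untreated plates lay close together and above every DAC plate, so that CTSL was 1.37-fold lower with DAC (log2 change −0.46 ± 0.10, limma adjusted p = 0.00462). It was called under every alternative, with changes of −0.60 to −0.41.

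**Figure D2:**
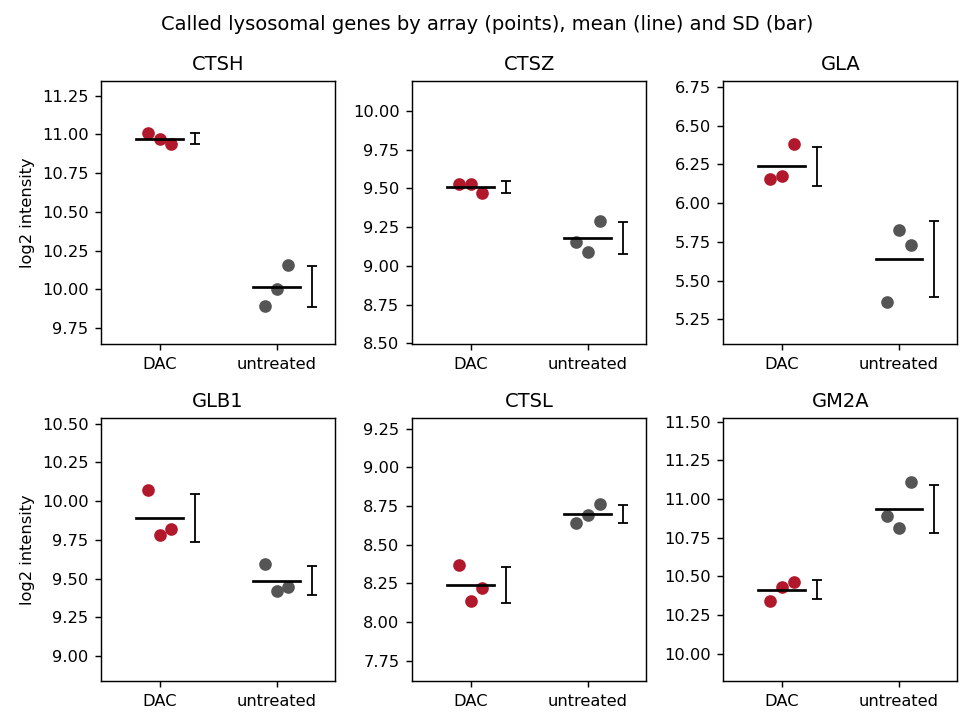
Normalised log2 intensity of the 6 called lysosomal genes on each array, DAC left and untreated right, with the group mean as a line and the SD (n = 3) as a bar. Each panel spans the same height on the log2 scale, and in each the DAC and untreated points do not overlap.

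No other cathepsin was called. CTSB, cathepsin B, read 12.15, 11.87 and 12.10 with DAC, against 11.94, 11.81 and 11.66 untreated, with overlap between the groups (log2 change 0.24 ± 0.11, limma adjusted p = 0.137). CTSK, cathepsin K, the collagen-cleaving protease best known from osteoclasts and also made by fibroblasts, read 10.94, 10.72 and 11.09 with DAC, against 10.71, 10.69 and 10.67 untreated. Its groups did not overlap but the DAC plates were spread (log2 change 0.23 ± 0.11, limma adjusted p = 0.141). With 75th percentile scaling both genes were called higher (changes of 0.42 and 0.38, limma adjusted p = 0.0135 and 0.0209), and CTSK was also called without DAC replicate 2 (0.32, limma adjusted p = 0.0418).

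The remaining tested cathepsins were closer to 0. The log2 change was 0.02 for CTSC (the dipeptidyl peptidase that activates serine proteases of leukocytes), −0.01 for the aspartic protease CTSD, −0.00211 for CTSF, and −0.11 for LGMN, legumain, which cleaves after asparagine and processes other cathepsins. The only probe of CTSD was dim, at 5.22 to 5.71 log2 units, near background, where changes are shrunk by the offset. CTSA, a serine carboxypeptidase that also protects neuraminidase and beta-galactosidase, had 5 kept probes, and all 5 had negative estimates. The changes ran from −0.35 to −0.05. The brightest did not pass (−0.16 ± 0.11, limma adjusted p = 0.279), and 1 other did, reading 8.34, 8.74 and 8.66 with DAC, against 8.82, 8.89 and 9.06 untreated (−0.35 ± 0.12, limma adjusted p = 0.0459). That call was lost without DAC replicate 1 or 3, without untreated replicate 2 or 3, with 75th percentile scaling and without the filter on dim probes (limma adjusted p up to 0.201). A further CTSA probe, whose groups did not overlap, fell just short (−0.30 ± 0.11, limma adjusted p = 0.0556). It was called lower with the replicate block, without between-array normalization and without DAC replicate 3 (limma adjusted p = 0.0297, 0.0105 and 0.0357), and yet another was called lower without DAC replicate 2 (limma adjusted p = 0.0314).

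CTSS, CTSE and CTSO could not be tested. Cathepsin S, typical of antigen-presenting cells, had 1 probe, which read 4.79, 4.49 and 4.79 with DAC and 4.44, 4.56 and 4.56 untreated and was detected on no array. The probes of CTSE and CTSO were detected on no array either. These are not evidence of absence, since 1 of the 2 CTSB probes also lay at background while the other was detected on all 6 arrays.

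Among the hydrolases, a pair of galactosidases rose. GLA encodes alpha-galactosidase A, the enzyme missing in Fabry disease, and GLB1 the lysosomal beta-galactosidase whose activity at raised pH is a widely used marker of senescent cells. GLA read 6.15, 6.18 and 6.38 on the DAC arrays, against 5.36, 5.83 and 5.73 on the untreated arrays. It was 1.51-fold higher (log2 change 0.60 ± 0.13, limma adjusted p = 0.00320), with untreated replicate 1 the lowest of the 6. GLA was called under every alternative, and its change ran from 0.37, without background correction, to 0.69 (0.38 with an offset of 50).

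GLB1 read 10.07, 9.78 and 9.82 with DAC, against 9.59, 9.42 and 9.45 untreated. All DAC plates were above the untreated ones, by 1.32-fold (log2 change 0.40 ± 0.11, limma adjusted p = 0.0142). The call was lost without DAC replicate 1 (0.31, limma adjusted p = 0.0736) and without untreated replicate 2 (0.37, limma adjusted p = 0.0523). The other kept GLB1 probe gave −0.05 ± 0.11 (limma adjusted p = 0.787), and the mean of both kept probes gave 0.18, which did not pass (limma adjusted p = 0.142). The 2 probes differ in sign, and the call rests on the brightest. The other probe read 5.38 to 5.66 log2 units over the 6 arrays, near background, where changes are shrunk by the offset.

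GM2A was the hydrolase-group gene that was lower. It encodes the GM2 activator, which presents ganglioside to beta-hexosaminidase A, the enzyme whose alpha subunit is the product of HEXA. GM2A read 10.34, 10.43 and 10.46 with DAC, against 10.89, 10.81 and 11.11 untreated. The DAC plates lay close together and below every untreated plate (1.44-fold lower, log2 change −0.52 ± 0.11, limma adjusted p = 0.00248). It was called under every alternative, with changes of −0.59 to −0.39. HEXA itself overlapped between the groups (−0.16 ± 0.12, limma adjusted p = 0.350).

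With HEXA, 13 of the 16 tested genes of this group did not pass, at log2 changes from −0.17 to 0.14. The others cover glycogen breakdown (GAA, −0.13), the removal of glycosaminoglycans (GUSB 0.14, IDS 0.09, IDUA 0.04, ARSB 0.11), glycoprotein sugars (MAN2B1 −0.17, NEU1 0.07), sphingolipids (ASAH1 −0.06, SMPD1 0.08, ARSA 0.04 and the saposin precursor PSAP 0.02) and peptides (TPP1 −0.07). The 2 probes under the older symbol of LIPA gave −0.16 ± 0.12 and 0.06 ± 0.12 (limma adjusted p = 0.326 and 0.762).

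Promoter sequence was read from RefSeq windows of GRCm38.p6, 250 bases before to 50 after each annotated start, for the 33 of 37 genes that had an entry (38 windows). The motif CACGTG, the E-box that TFEB can bind, is the centre of the element known from lysosomal genes, and the longer form GTCACGTG always contains it. Both strands were searched. CACGTG was found in 11 of the 38 windows (28.9%), against 7.15% of all 32851 windows of that length, and GTCACGTG in 8 (21.1%), against 2.25%. The median number of CpG dinucleotides, the sites that DNA methyltransferases modify, was 12 per member window and 7 per window overall. CACGTG itself contains a CpG, and the part of CpG content in the motif shares was not tested.

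The 250 bases before the start of GLA, GLB1 and LAMP1 are shown 5′ to 3′ because they carry the motif, and because GLA and GLB1 were higher with DAC while LAMP1, which holds the most copies of these 3, did not pass. Capitals mark CACGTG. The windows are chrX:134601006-134601255 (minus strand), chr9:114400828-114401077 (plus strand) and chr8:13158911-13159160 (plus strand), and hold 2, 1 and 4 copies.
GLA: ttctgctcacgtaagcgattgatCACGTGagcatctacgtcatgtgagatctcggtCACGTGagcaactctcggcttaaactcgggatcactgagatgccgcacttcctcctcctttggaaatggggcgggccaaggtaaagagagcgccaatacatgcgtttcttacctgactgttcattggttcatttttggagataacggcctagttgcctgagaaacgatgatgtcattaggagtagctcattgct
GLB1: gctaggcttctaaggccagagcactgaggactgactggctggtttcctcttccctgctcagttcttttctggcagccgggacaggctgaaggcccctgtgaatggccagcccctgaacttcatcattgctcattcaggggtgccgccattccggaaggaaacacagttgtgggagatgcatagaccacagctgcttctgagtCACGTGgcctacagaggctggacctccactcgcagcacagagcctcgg
LAMP1: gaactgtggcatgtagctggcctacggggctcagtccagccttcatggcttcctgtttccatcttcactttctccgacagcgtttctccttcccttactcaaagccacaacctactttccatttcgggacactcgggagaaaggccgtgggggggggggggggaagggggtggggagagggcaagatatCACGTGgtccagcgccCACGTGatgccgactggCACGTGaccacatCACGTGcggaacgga

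All 11 genes with CACGTG in a window were tested. Of these, GLA and GLB1 were higher and CTSL was lower with DAC, at a median log2 change of −0.01 and a range from −0.46 to 0.60. Of 18 tested genes with a window and no match, CTSZ was higher and GM2A lower, at a median of 0.07 and a range from −0.52 to 0.33. Over all target names 13.9% were higher and 14.0% lower. A link between the motif and the changes was not tested. The table holds no entry for CTSB, CTSE, CTSH or ASAH1. A match is a description of letters and not of a bound site. For CTSA, CTSL and LGMN the matching window belongs to a later start inside the annotated gene, and the windows at the first start of CTSA and LGMN hold no match.

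No membrane protein passed through its brightest probe. LAMP1, a heavily glycosylated protein that lines the membrane, read 12.85, 12.86 and 12.87 with DAC, against 12.74, 12.67 and 13.08 untreated. The DAC values lay inside the untreated range (log2 change 0.03 ± 0.12, limma adjusted p = 0.863). SCARB2, the receptor that carries glucocerebrosidase to lysosomes, had a log2 difference of 0.12 ± 0.10 (limma adjusted p = 0.420), and MCOLN1, the calcium channel mucolipin 1, one of −0.06 ± 0.10 (limma adjusted p = 0.697).

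LAMP2 had 6 kept probes of 7, and 1 of them was called. LAMP2 is spliced to alternative last exons, which give the isoforms known as LAMP2A, LAMP2B and LAMP2C, and the files do not say which of them a probe reads. The brightest probe averaged 12.12 log2 units with DAC and 12.05 untreated and gave 0.07 ± 0.14 (limma adjusted p = 0.763). Another, far dimmer, read 6.10, 6.00 and 6.12 with DAC, against 5.77, 5.66 and 5.40 untreated, without overlap (0.46 ± 0.11, 1.38-fold, limma adjusted p = 0.00739). It was called under every alternative except the one without between-array normalization (limma adjusted p = 0.0657), and its change ran from 0.28 to 0.54. The other kept probes lay between −0.05 and 0.27 and did not pass.

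CD63, a tetraspanin of late endosomes and exosomes, also had probes that differed in sign. The brightest gave 0.16 ± 0.11 and the second 0.20 ± 0.11, while the third gave −0.32 ± 0.13 (limma adjusted p = 0.322, 0.210 and 0.0852). The third was called lower without between-array normalization (−0.38, limma adjusted p = 0.0314), with an intensity-trended variance (limma adjusted p = 0.0472) and without untreated replicate 3 (−0.45, limma adjusted p = 0.0298). The first and second were called higher with 75th percentile scaling (0.36 and 0.35, limma adjusted p = 0.0380 and 0.0436). CD63 therefore has no settled direction here.

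**Figure D3:**
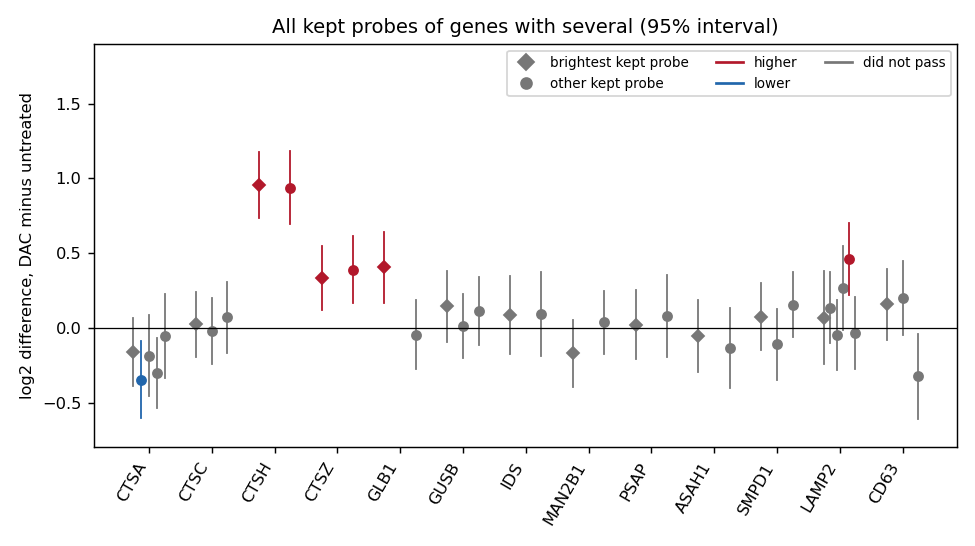
Log2 intensity difference (DAC minus untreated) with 95% intervals for every kept probe of the 13 lysosomal genes with at least 2, the brightest as a diamond. The probes of CTSH lie together at 0.94 and 0.96, and those of CTSZ at 0.33 and 0.39, while the probes of LAMP2, CD63 and GLB1 are spread over 0.51, 0.53 and 0.45.

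Over all 13 genes with at least 2 kept probes, 7 had probes of 1 sign only and 6 had probes of both. Counted by probe, 7 of 56 kept probes were higher and 3 lower, 12.5% and 5.36%, against 13.1% and 14.5% of all kept probes (27.7% called in all). The groups did not overlap for 15 of the 56, against 41.8% of all kept probes. Of the 21 member probes that did not pass the filter, 16 were detected on no array.

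Of the regulators, SQSTM1 alone could be tested. It encodes p62, the autophagy receptor that delivers ubiquitinated cargo and is itself degraded in lysosomes. It read 12.54, 12.52 and 12.52 on the DAC arrays, against 12.25, 12.28 and 12.39 on the untreated arrays. The groups did not overlap, yet the change of 0.22 ± 0.10 did not pass (limma adjusted p = 0.110). Over the 17 alternatives the change stayed between 0.19 and 0.40, and 5 of them called it. The gene of TFEB itself, listed under its older name TCFEB, had 2 probes and was not tested. Of these, 1 was detected on 1 untreated array only and the other on no array.

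Further genes of the pathway were counted in 7 lists, 184 genes in all, of which 140 were tested. With DAC 18 were higher and 7 lower, 12.9% and 5.00%, against the 13.9% and 14.0% of all target names, and the median log2 change was 0.06. With 1 array left out, the count of higher genes was 9 to 15 (11 without DAC replicate 1, 9 without DAC replicate 3 and 9 without untreated replicate 3) and that of lower genes 4 to 6 (4 without DAC replicate 1 or 3 or untreated replicate 2 or 3). Without between-array normalization 7 were higher and 15 lower, and with 75th percentile scaling 26 were higher and 4 lower. The list with the largest share called was that of other hydrolases, in which 8 of 23 tested were higher (34.8%) and 1 lower, at a median of 0.26. HPSE, heparanase, changed by 0.66 ± 0.12 (limma adjusted p = 0.00121), PLA2G15, lysosomal phospholipase A2, by 0.47 ± 0.11 (limma adjusted p = 0.00596) and DPP7, a dipeptidyl peptidase, by 0.47 ± 0.11 (limma adjusted p = 0.00785). GALC, the galactosylceramidase missing in Krabbe disease, was lower by 1.40-fold (−0.48 ± 0.10, limma adjusted p = 0.00261).

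Among other membrane proteins and transporters, 5 of 26 tested were higher (19.2%) and 1 lower (3.85%), with a median of 0.05. Over all target names 13.9% were higher and 14.0% lower. SLC36A1, a proton-coupled exporter of small amino acids, was 1.64-fold higher (limma adjusted p = 2.42e-04). The cholesterol exporters of the lysosome also rose, NPC2 by 1.42-fold and NPC1 by 1.33-fold (limma adjusted p = 0.00737 and 0.0163). NPC1 and NPC2 lost their calls without the filter on dim probes (limma adjusted p = 0.0688 and 0.0599), and NPC1 also without DAC replicate 1 or 3. TPCN2, an endolysosomal cation channel, was 1.36-fold lower (limma adjusted p = 0.00837).

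Of 17 tested proton pump subunits, 1 was higher and 1 lower (5.88% each), against 13.9% and 14.0% of all target names. ATP6V0A1, a membrane subunit of the v-ATPase that couples rotation to proton flow, averaged 8.89 ± 0.13 with DAC and 9.78 ± 0.06 untreated (SD, n = 3 each). At 1.84-fold lower it had the largest change of the 140 tested genes of the 7 lists (log2 change −0.88 ± 0.10, limma adjusted p = 2.52e-05). ATP6V1A, the catalytic subunit, was 1.30-fold higher (limma adjusted p = 0.0183), a call lost without DAC replicate 3, untreated replicate 2 or 3, or between-array normalization. The other 15 of 17 tested subunits did not pass, with a median over all 17 of 0.09.

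Of 28 tested genes of enzyme sorting, 2 were higher and 2 lower (7.14% each), against 13.9% and 14.0% of all target names. SORT1, sortilin, a receptor that carries some enzymes and prosaposin to lysosomes without mannose 6-phosphate, averaged 8.43 ± 0.03 with DAC and 9.08 ± 0.11 untreated (1.57-fold lower, limma adjusted p = 2.85e-04). GNPTG, a subunit of the phosphotransferase that makes the mannose 6-phosphate tag, was 1.33-fold higher (limma adjusted p = 0.00726). AP1B1, of the AP-1 clathrin adaptor, was 1.31-fold higher and GGA2, an adaptor of the mannose 6-phosphate receptors, 1.23-fold lower (limma adjusted p = 0.0175 and 0.0339). The call of AP1B1 was lost without DAC replicate 1 or 3, untreated replicate 3 or between-array normalization, and that of GGA2 without any 1 array and with 75th percentile scaling. The receptors themselves, M6PR and IGF2R, chosen after their values were seen, did not pass, at 0.20 and 0.08 (limma adjusted p = 0.175 and 0.681).

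In the list of the TFEB family, mTORC1 and Ragulator, the complexes that sense lysosomal nutrients, 14 genes were tested. Of these, 1 was higher (7.14%) and none lower at an adjusted p under 0.05, against 13.9% and 14.0% of all target names. The higher gene was LAMTOR2, a Ragulator subunit, at 1.33-fold (limma adjusted p = 0.0239). Its call was lost without DAC replicate 2 or 3 or untreated replicate 3, without the filter on dim probes and without between-array normalization. Of 29 tested autophagy genes, 1 was higher (3.45%) and 2 lower (6.9%), against the same shares of all target names. ATG101, of the ULK1 complex, was 1.29-fold higher, GABARAPL1, an ATG8 family protein, 1.23-fold lower and ATG2A, a lipid transfer protein, 1.29-fold lower (limma adjusted p = 0.0148, 0.0355 and 0.0387). ATG101 lost its call without DAC replicate 3, untreated replicate 1 or between-array normalization, and GABARAPL1 without any 1 array and with 75th percentile scaling. ATG2A, whose groups overlap, lost it without DAC replicate 1 or 3 or untreated replicate 2 or 3, with 75th percentile scaling and without the filter on dim probes. None of 3 tested cathepsin inhibitors, CST3, CSTB and SERPINB6A, passed, at 0.000531, 0.02 and 0.27.

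**Figure D4:**
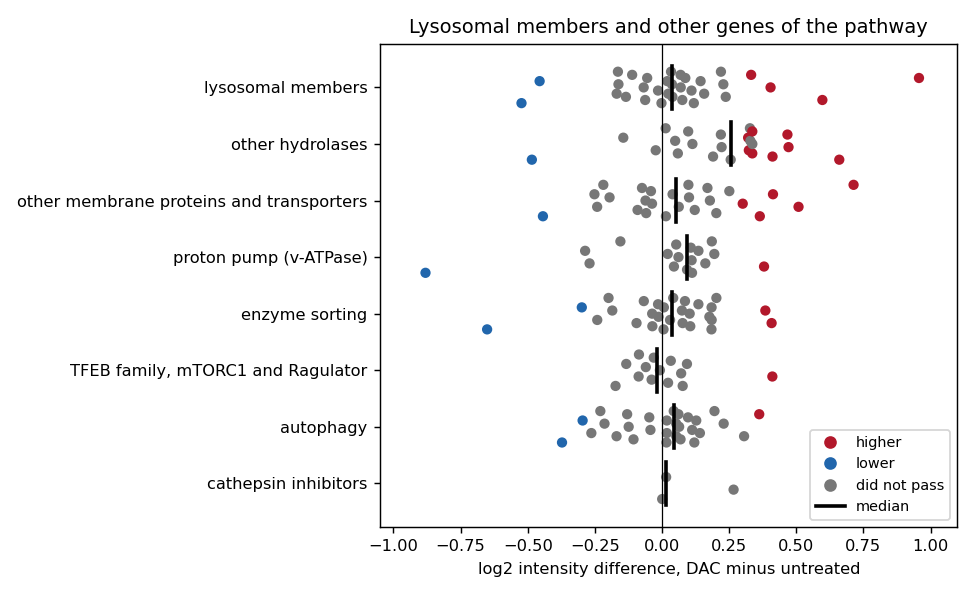
Log2 intensity difference (DAC minus untreated) of the tested lysosomal genes (top row) and of the genes in 7 further lists of the pathway, 1 point per gene, with the median as a black line. The list of other hydrolases has its median at 0.26, the other rows between −0.02 and 0.09, and ATP6V0A1 is the point at −0.88.

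Some markers of leukocytes, cells of which some are rich in lysosomes, were higher beside these genes. Of 22 markers of macrophages and other leukocytes on the array, 10 were tested. With DAC 8 of them were higher (CD53, LAPTM5, LYZ, LYZ2, CSF1R, CORO1A, C1QB and C1QC) and none lower, against 13.9% and 14.0% of all target names. CD53 and CSF1R were detected on 3 DAC arrays and no untreated array, C1QB on 3 and 1, and C1QC on 3 and 2. These passed the filter only by their DAC detections, at mean log2 intensities of 5.34 to 5.93 with DAC, so the filter itself favoured their direction. The summed normalised intensity of the 22 markers (linear scale, offset subtracted) was 1482 to 1514 on the DAC arrays, against 891 to 960 on the untreated arrays. The lysozyme genes LYZ and LYZ2 were the brightest and hold the largest parts of this sum. They averaged 9.54 and 8.04 log2 units with DAC, against 8.76 and 7.35 untreated, so the sum is not a measure of the whole list. Detected on no array were 12 of the 22, among them the defining markers PTPRC, EMR1, ITGAM, AIF1 and TYROBP. CD68, a lysosomal membrane protein abundant in macrophages and 1 of the 5 higher transporter and membrane genes, was chosen after its values were seen. It changed by 0.36 ± 0.12 (limma adjusted p = 0.0303), and its call was not followed over the alternatives. The part of such cells in the changes of CTSH, CTSZ and the other genes was not tested.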

How the data were processed

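Illumina bead arrays of total RNA, taken with Trizol and labelled with biotin per the labels' protocols, were read from the deposited table. Per the file headers it gives each probe's mean bead intensity, detection p-value, bead standard error and bead number, and its unequal, positive intensity values show no normalization. For scanner software and annotation build, nothing is stated in the labels or headers. A further deposited value table was not used, since its probe identifiers do not match. Background was corrected by normexp from the detection p-values with an offset of 16, log2 values were brought to 1 distribution by quantile normalization, and the fit took probes detected (p under 0.01) on 3 or more arrays. All kept probes were fitted with limma 3.58.1 (lmFit, eBayes) in R 4.3.3, with Benjamini-Hochberg adjustment over 16883 probes. A gene was read from its brightest kept probe. Kept member probes had 20 to 70 beads on each array, and 3 arrays per group limit the precision. The script was tested on simulated intensities. Symbols, synonyms and promoters came from RefSeq tables of GRCm38.p6; by symbol 36 of 37 members matched, and 1 by synonym.

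The members and lists were chosen with earlier results of these data known. All members are named; those with a called probe are given by array. In each further list, up to 3 called genes with the smallest p in each direction are named. Alternatives changed the offset, background correction, normalization, filter, probe summary, variance model, replicate block and the arrays left out.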

Additional observations from a re-analysis of the deposited data

How the results depend on the processing

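CTSH, CTSL, GLA and GM2A passed under all 17 alternatives, CTSZ under 11 and GLB1 under 14. No called member probe changed sign in any of them. CTSL, GLA and GM2A had 1 probe each, so for these genes agreement between probes could not be seen. With 75th percentile scaling, 8 members were higher, 4 other pathway genes were lower and the members' median log2 change was 0.17; without between-array normalization, 7 other pathway genes were higher, 15 were lower and the members' median was −0.016. The cause was not tested. With 1 array left out, 2 to 4 members were higher, 9 to 15 other pathway genes were higher and 4 to 6 lower, with fewer arrays in each fit; 2 members were higher without DAC replicate 1 and without untreated replicate 2. With the replicate block, 4 members were higher and 2 lower, and 20 and 8 other pathway genes, while over all kept probes 2634 were higher and 2996 lower, in place of 2220 and 2454. Deviations of same-numbered arrays correlated at 0.31, 0.31 and −0.03. The arrays numbered 1 and 2 correlated best with their own number and those numbered 3 did not, so the numbers were not taken as pairs. Over 56 kept member probes, 868 recomputed values stayed on their side of the threshold, 18 passed newly and 17 no longer passed. Of the 18 called pathway genes named by the rule of up to 3 per list and direction, 9 passed under every alternative. Pathway genes named outside that rule were not followed in this way. Probes near background give changes shrunk by the offset, as for GLA.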
